A study of Homo sapiens with 9 samples.

Results

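Annexins are proteins that bind acidic phospholipids, such as phosphatidylserine, in the presence of calcium. The 8 annexin genes described here, ANXA1, ANXA2, ANXA3, ANXA4, ANXA5, ANXA6, ANXA7 and ANXA11, were found by symbol among the 25382 genes of the count table. ANXA1 was chosen by its measured level, high with DsiRNA 13.8 alone, and the others by their names, so the values of ANXA1 are given as a description and are not tested. The cells were 501mel, an established human melanoma line. They were lipofected with Dicer-substrate short interfering RNAs (DsiRNAs), and total RNA was taken after 24 h. The control group received the DsiRNA NC1, and the other groups received DsiRNA 13.6 or DsiRNA 13.8, each aimed at TBX3, which encodes a T-box transcription factor. Each group held 3 libraries, labelled biological replicates of this 1 line; whether they came from separate cultures is not stated further, and p-values measure the spread between these libraries. The knockdown was transient and all groups, controls included, had been through lipofection.

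Annexins share a folded core that docks on membranes through bound calcium, and they differ in the tail in front of it, which binds partner proteins. ANXA1 is induced by glucocorticoids in many cells, restrains cytosolic phospholipase A2 and, once outside the cell, acts on formyl peptide receptors. ANXA2 pairs with S100A10 and holds plasminogen and its activator at the cell surface. Annexins also assemble at torn plasma membrane, where they take part in its repair, and several of them bridge or fuse vesicles.

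Library totals ran from 38105026 to 52272147 counted reads, and replicate libraries correlated over genes with Pearson's r of 0.991 to 0.995 (log2 CPM). Levels are given as CPM, the counts scaled to a common library size by edgeR's TMM method. TBX3 stood at 88.6, 83.8 and 84.0 CPM in the controls, at 46.4, 41.0 and 39.4 with DsiRNA 13.6 and at 36.1, 33.7 and 36.2 with DsiRNA 13.8. All 6 knockdown libraries lay below the 3 controls. A large share of the transcriptome moved with each DsiRNA, so a single annexin's call is read against that background: edgeR's quasi-likelihood test, at a Benjamini-Hochberg adjusted p under 0.05, called 49.9% of 14731 tested genes with DsiRNA 13.6 and 55.5% with DsiRNA 13.8, each against control. Between the DsiRNAs, 61.1% were called. Because the RNA came from bulk cultures, fewer cells of a kind and less RNA per cell cannot be told apart.

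Of the 8 annexins, ANXA1, ANXA2 and ANXA6 had higher levels in all 3 DsiRNA 13.8 libraries than in every other library, so the 250 bases before their RefSeq starts are shown (GRCh38.p14, read 5′ to 3′ on the strand of the gene). RefSeq gives 2 promoters for ANXA6; the upstream one is shown, and the other holds none of the motifs searched. The first 2 carry a TATA box, and capitals mark every match to 4 motifs that were picked after the sequences had been read: the T-box half-site AGGTGTG, the E-box CACGTG and the AP-1 motif TGANTCA on either strand, and the TATA box TATAAA on the gene's own strand.
ANXA1, chr9:73151615-73151864, plus strand: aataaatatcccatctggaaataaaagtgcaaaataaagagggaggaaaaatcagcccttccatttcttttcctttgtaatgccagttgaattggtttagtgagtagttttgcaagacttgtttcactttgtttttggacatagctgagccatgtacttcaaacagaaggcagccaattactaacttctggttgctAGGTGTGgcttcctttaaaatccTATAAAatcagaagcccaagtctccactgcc
ANXA2, chr15:60397987-60398236, minus strand: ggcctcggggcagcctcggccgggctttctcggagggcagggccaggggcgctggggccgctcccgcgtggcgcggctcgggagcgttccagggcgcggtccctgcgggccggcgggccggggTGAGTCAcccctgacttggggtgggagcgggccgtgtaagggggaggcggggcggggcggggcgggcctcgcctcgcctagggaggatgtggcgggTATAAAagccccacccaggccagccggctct
ANXA6, chr5:151157780-151158029, minus strand: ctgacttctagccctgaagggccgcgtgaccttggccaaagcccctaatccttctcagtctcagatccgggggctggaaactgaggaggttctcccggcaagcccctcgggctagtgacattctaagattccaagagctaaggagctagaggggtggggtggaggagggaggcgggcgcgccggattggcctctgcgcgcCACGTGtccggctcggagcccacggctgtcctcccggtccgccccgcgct
In ANXA1 the half-site AGGTGTG began 54 bases before the start and the TATA box 31 bases before it. The ANXA2 sequence held an AP-1 match 127 bases and a TATA box 31 bases before the start, and the ANXA6 sequence an E-box 50 bases before it. These 3 sequences differed in base composition, with 38.4% G and C in ANXA1, 78.0% in ANXA2 and 65.6% in ANXA6. Searched over windows of 300 bases that reach past the start, AGGTGTG was found in 4.59% of 35116 RefSeq promoters, CACGTG in 7.26%, TGANTCA in 7.71% and TATAAA in 7.33%. All 8 annexins matched this table, with 12 promoters between them. AGGTGTG was found in 1 of these 12. Outside the 3 genes shown, CACGTG was also found in a promoter of ANXA4 and TATAAA in a promoter of ANXA11. A match is a stretch of letters, and no binding was measured in these cells.

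ANXA1 was a gene of low level in the controls and in the cells given DsiRNA 13.6. It had 14.8, 6.89 and 11.3 CPM in the controls, 11.6, 9.87 and 8.97 with DsiRNA 13.6, and 145, 213 and 176 with DsiRNA 13.8. The lowest DsiRNA 13.8 library was far above the highest of the other 6, while the control and DsiRNA 13.6 libraries overlapped. In reads, the 3 controls held 1409 in all and the 3 DsiRNA 13.8 libraries 26838. The fitted log2 difference from control was 4.01 ± 0.23 (SE) with DsiRNA 13.8, a 16.1-fold higher level, and -0.12 ± 0.23 with DsiRNA 13.6. The control libraries were uneven, with an SD of 3.95 CPM (n = 3), and control replicate 1 was the highest of them. Without that library the DsiRNA 13.6 difference was 0.15, on the other side of 0. The difference with DsiRNA 13.8 stayed between 3.77 and 4.29 when any 1 of the 9 libraries was left out.

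ANXA2 moved in opposite directions with the 2 DsiRNAs. It is the plasminogen-binding partner of S100A10 and was 1 of the most abundant annexin mRNAs in these cells. Its levels were 1084, 1081 and 1164 CPM in the controls, 777, 816 and 856 with DsiRNA 13.6, and 1456, 1541 and 1466 with DsiRNA 13.8. No group overlapped with another. ANXA2 fell by 0.44 ± 0.06 on the log2 scale with DsiRNA 13.6 (-26.4%; edgeR adjusted p = 8.1e-05) and rose by 0.42 ± 0.06 with DsiRNA 13.8 (+34.1%; edgeR adjusted p = 9.3e-05). The DsiRNA 13.8 libraries stood 0.87 ± 0.06 above those of DsiRNA 13.6 (edgeR adjusted p = 1.2e-07). A processed copy of the gene, ANXA2P2, had 3.38 to 7.67 CPM and followed ANXA2, with log2 differences of -0.51 and 0.42 from control. Reads of near-identical copies can be counted for either gene, so the values of ANXA2P2 are uncertain. Adding its reads to ANXA2 left the 3 differences of ANXA2 at -0.44, 0.42 and 0.87.

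ANXA5, the annexin whose affinity for exposed phosphatidylserine is used to stain dying cells, passed no test. Per kilobase of mRNA it lay below ANXA2 in the controls and with DsiRNA 13.8, and overlapped with ANXA2 with DsiRNA 13.6. It had 827, 927 and 1000 CPM in the controls, 886, 926 and 1030 with DsiRNA 13.6, and 1011, 1006 and 1016 with DsiRNA 13.8. The control and DsiRNA 13.6 libraries overlapped, and the 3 DsiRNA 13.8 libraries lay close together just above the highest control. The log2 difference from control was 0.05 ± 0.08 with DsiRNA 13.6 (95% interval -0.12 to 0.22; edgeR adjusted p = 0.66). With DsiRNA 13.8 it was 0.14 ± 0.08 (95% interval -0.03 to 0.31; edgeR adjusted p = 0.15). Without control replicate 3 the second value was 0.20 and passed, with an edgeR adjusted p of 0.032.

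ANXA6 carries a duplicated annexin core and sits on the plasma membrane and on late endosomes. It stood at 63.4, 92.1 and 75.4 CPM in the controls, at 63.8, 72.8 and 75.6 with DsiRNA 13.6, and at 125, 120 and 124 with DsiRNA 13.8. All DsiRNA 13.8 libraries were above all others, and the other groups overlapped. It rose by 0.68 ± 0.11 on the log2 scale with DsiRNA 13.8 (+59.8%; edgeR adjusted p = 0.00019), and the DsiRNAs differed by 0.80 ± 0.11 (edgeR adjusted p = 4.2e-05). With DsiRNA 13.6 the difference from control was -0.12 ± 0.11 (95% interval -0.36 to 0.12; edgeR adjusted p = 0.39). That value rested on single controls: it was -0.24, with an edgeR adjusted p of 0.042, without control replicate 1, and 0.03 without control replicate 2.

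**Figure D1:**
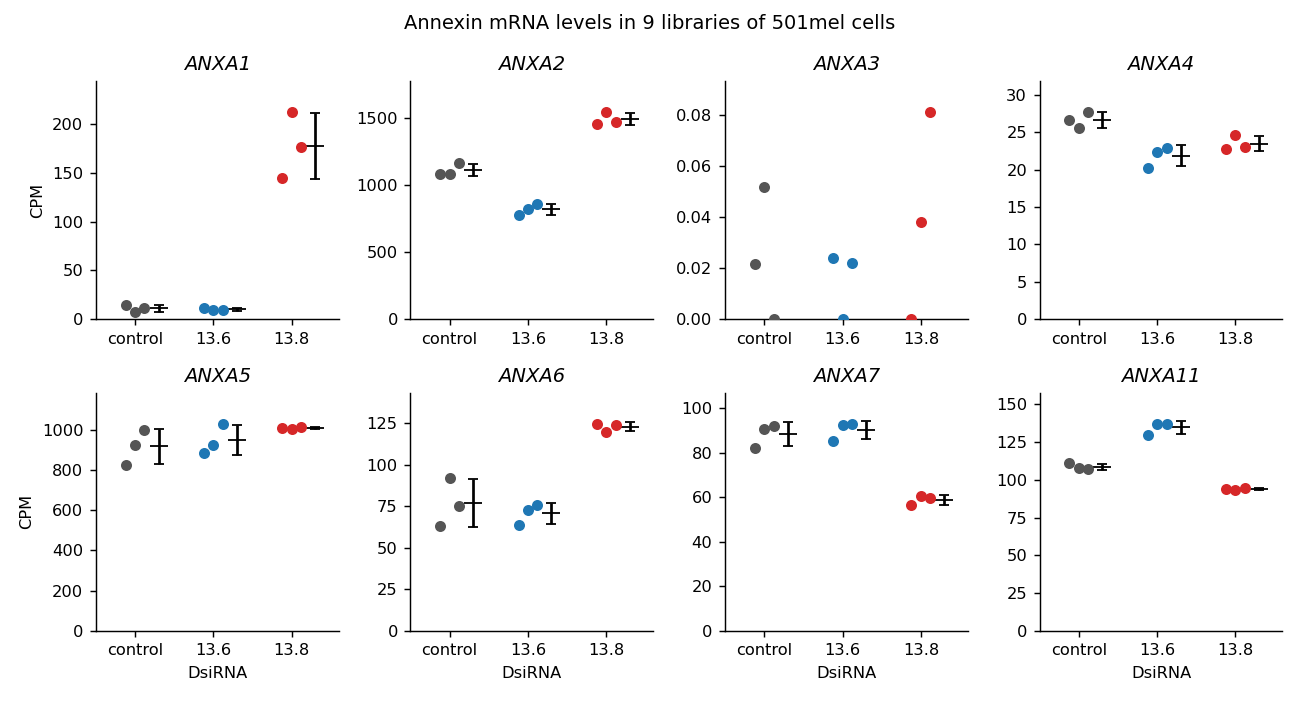
Level of each annexin mRNA in CPM (vertical axes, starting at 0, a different range in each panel) in the 3 libraries of each group; points are libraries in the order of their replicate numbers, and bars beside them show the mean and SD, left out for ANXA3. ANXA1 reached 145 to 213 CPM with DsiRNA 13.8 and at most 14.8 elsewhere, ANXA2 was lowest with DsiRNA 13.6 and highest with DsiRNA 13.8, and ANXA11 did the reverse.

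ANXA7 and ANXA11 have long tails rich in proline and glycine, and both were lower with DsiRNA 13.8. ANXA7, first described for joining secretory granules, had 82.1, 90.8 and 92.2 CPM in the controls, 85.4, 92.3 and 93.1 with DsiRNA 13.6, and 56.5, 60.5 and 59.6 with DsiRNA 13.8. The DsiRNA 13.8 libraries were apart from all others, and the other groups overlapped. It fell by 0.59 ± 0.07 on the log2 scale with DsiRNA 13.8 (-33.4%; edgeR adjusted p = 5.7e-06) and differed by 0.03 ± 0.06 with DsiRNA 13.6 (95% interval -0.11 to 0.17; edgeR adjusted p = 0.72). The DsiRNAs differed by -0.62 ± 0.07 (13.8 less 13.6; edgeR adjusted p = 3.0e-06).

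ANXA11, which ties RNA granules to lysosomes, had 111, 108 and 107 CPM in the controls, 130, 137 and 137 with DsiRNA 13.6, and 93.7, 93.3 and 94.4 with DsiRNA 13.8. No groups overlapped, and the order of the groups was the reverse of that for ANXA2. It rose by 0.31 ± 0.05 on the log2 scale with DsiRNA 13.6 (+24.0%; edgeR adjusted p = 0.0003) and fell by 0.21 ± 0.05 with DsiRNA 13.8 (-13.7%; edgeR adjusted p = 0.0041). Between the DsiRNAs the difference was -0.52 ± 0.05 (edgeR adjusted p = 2.0e-06).

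ANXA4, an annexin that gathers on membranes in ordered arrays, was lower in all 6 knockdown libraries than in the 3 controls. It had 26.7, 25.6 and 27.7 CPM in the controls, 20.3, 22.4 and 23.0 with DsiRNA 13.6, and 22.8, 24.7 and 23.0 with DsiRNA 13.8. The fall of 0.29 ± 0.07 on the log2 scale with DsiRNA 13.6 passed the test (-18.0%; edgeR adjusted p = 0.0061). The difference of -0.18 ± 0.07 with DsiRNA 13.8 did not (edgeR adjusted p = 0.051). DESeq2's Wald test put it on the other side of the threshold, with an adjusted p of 0.039. The DsiRNA groups overlapped, and ANXA4 differed between them by 0.10 ± 0.07 (95% interval -0.06 to 0.26; edgeR adjusted p = 0.25).

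ANXA3 was close to absent from the counts. It had 1, 2 and 0 reads in the controls, 1, 0 and 1 with DsiRNA 13.6, and 0, 2 and 4 with DsiRNA 13.8. It was below the filter on low counts and was not tested, and no difference was detectable at this depth, where 3 reads make 0.057 to 0.078 CPM. Those limits cover counting error only.

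Of the 8 annexins, 7 passed the filter and 6 were given a test. DsiRNA 13.6 changed 3 of the 6, ANXA11 upward and ANXA2 and ANXA4 downward, where 49.9% of all tested genes were called. DsiRNA 13.8 changed 4, ANXA2 and ANXA6 upward and ANXA7 and ANXA11 downward, where 55.5% were called. Between the DsiRNAs 4 of 6 differed, again with ANXA2 and ANXA6 higher and ANXA7 and ANXA11 lower with DsiRNA 13.8, where 61.1% were called. These shares are near the background, so the number of calls sets nothing apart about the family. By direction, 30.2% of tested genes were higher and 30.9% lower with DsiRNA 13.8 than with DsiRNA 13.6. Libraries did not overlap for 3 of the 6 with DsiRNA 13.6, where 56.0% of tested genes did not, for all 6 with DsiRNA 13.8 (59.1%), and for 4 of 6 between the DsiRNAs (68.8%). The median log2 difference of the 6 was -0.04 with DsiRNA 13.6 and -0.02 with DsiRNA 13.8, beside -0.01 and 0.01 for all tested genes. ANXA2 and ANXA11 were called with both DsiRNAs, each in opposite directions.

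**Figure D2:**
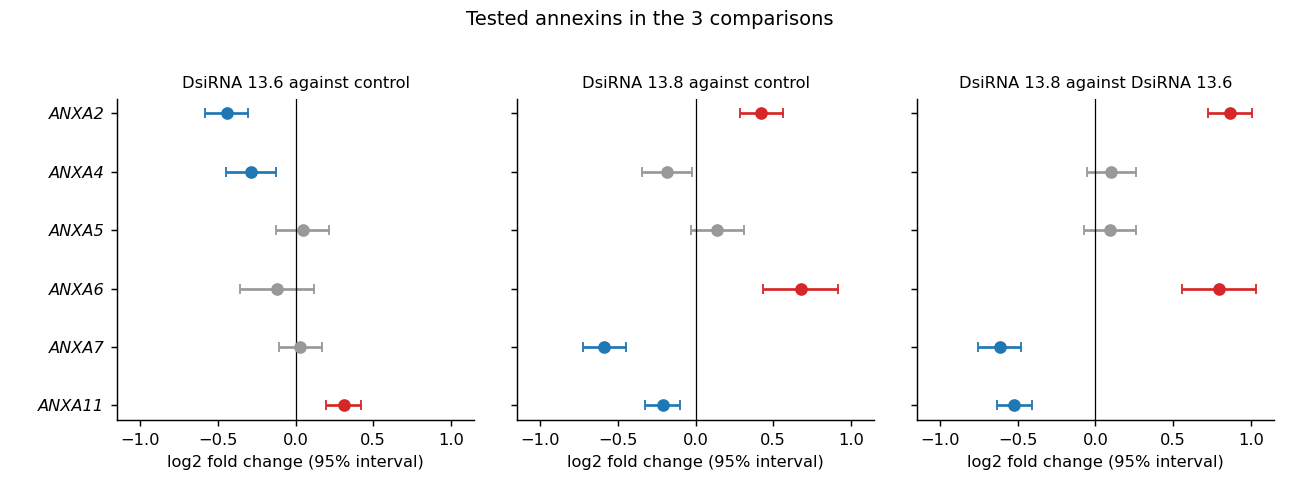
Log2 fold change (horizontal axes) of the 6 annexins given a test, in each of the 3 comparisons; points are fitted values, bars are 95% intervals, red marks a called rise, blue a called fall and grey a difference that did not pass. ANXA2 lies at -0.44 with DsiRNA 13.6 and at 0.42 with DsiRNA 13.8, and ANXA11 at 0.31 and -0.21.

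Compared between genes per kilobase of mRNA, the family in control cells was mostly ANXA2 and ANXA5. Their mean levels were 662 and 521 CPM per kb, and the libraries of the pair did not overlap. ANXA7 at 36.0 and ANXA6 at 29.7 CPM per kb came next and overlapped with each other. ANXA11 followed at 15.6, then ANXA4 at 9.53 and ANXA1 at 7.28, whose libraries overlapped. ANXA2 made up 51.7% of the summed level per kb and ANXA5 40.7%.

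DsiRNA 13.6 put ANXA5 first, at 538 CPM per kb, and ANXA2 second, at 487, with overlapping libraries. In the cells given DsiRNA 13.8, ANXA2 was first at 887 and ANXA5 second at 574, with no overlap. ANXA1 was then at 118 CPM per kb, next in order and ahead of ANXA6 at 47.4 and ANXA7 at 24.0. Its share of the summed level was 0.57% in the controls, 0.60% with DsiRNA 13.6 and 7.06% with DsiRNA 13.8. The ratio of ANXA2 to ANXA5 reads was 1.21 ± 0.08 in the controls, 0.86 ± 0.03 with DsiRNA 13.6 and 1.47 ± 0.05 with DsiRNA 13.8 (SD, n = 3 each). Lengths were those of the longest GENCODE 29 transcript with a RefSeq mRNA accession, so the order rests on that transcript being the one expressed.

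**Figure D3:**
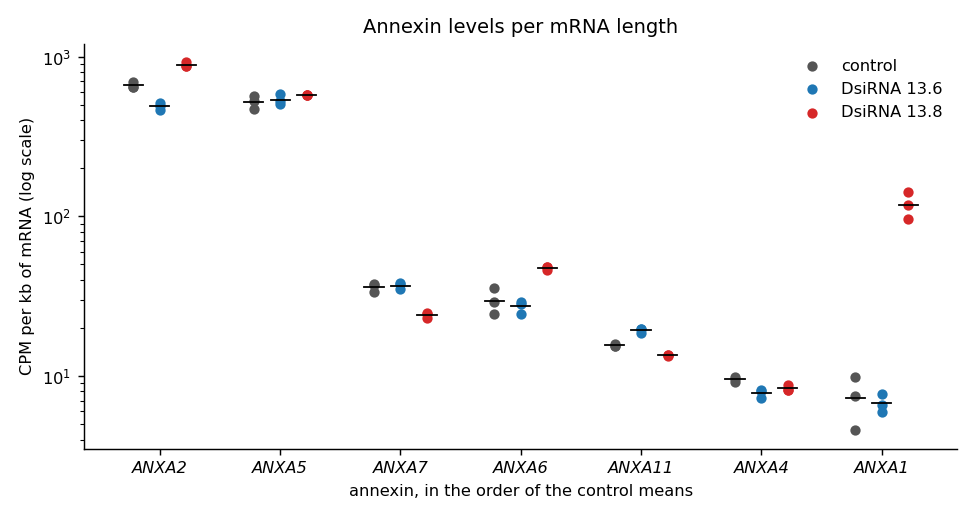
Level of 7 annexins per kb of mRNA (vertical log axis, CPM per kb) in the 9 libraries, with annexins in the order of the control means; points are libraries, coloured by group, and black lines are group means. ANXA2 and ANXA5 lie above 460 CPM per kb in every library, and ANXA1 moves from last place to the third with DsiRNA 13.8; ANXA3 is not drawn because of its few reads.

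Of 6 further annexins listed, 5 were in the count table. ANXA8 and ANXA8L1 had 0 counted reads in every library, and ANXA10 had at most 4 reads. The limit of 0.057 to 0.078 CPM covers counting error only. How reads shared by similar gene copies were counted is not stated, so these counts do not show that ANXA8 and ANXA8L1 were absent. ANXA9 was counted 31, 10 and 16 times in the controls, 8, 6 and 4 with DsiRNA 13.6, and 45, 44 and 55 with DsiRNA 13.8. It fell by 1.70 on the log2 scale with DsiRNA 13.6 (edgeR adjusted p = 0.009) and rose by 1.10 with DsiRNA 13.8 (edgeR adjusted p = 0.021), the same order of groups as ANXA2 at a far lower level. ANXA13, which is known mainly from gut epithelium, was counted 113, 59 and 59 times in control libraries, 95, 115 and 88 times after DsiRNA 13.6 and 33, 30 and 45 times after DsiRNA 13.8. It fell by 1.33 on the log2 scale with DsiRNA 13.8 (edgeR adjusted p = 0.00086), and its difference of 0.30 with DsiRNA 13.6 did not pass (edgeR adjusted p = 0.32).

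Annexins work with small EF-hand proteins, of which 17 of 22 listed were tested. With DsiRNA 13.6, 6 rose and 3 fell, with a median log2 difference of 0.13. With DsiRNA 13.8, 9 rose and 3 fell, with a median of 0.67. S100A3 and S100P, among these 9, passed the filter on low counts only through their DsiRNA 13.8 reads, so their rise is a description. Among all tested genes 24.9% rose and 25.0% fell with DsiRNA 13.6, and 27.5% and 27.9% with DsiRNA 13.8, with medians of -0.01 and 0.01. S100A10, the partner of ANXA2, had mean levels of 41.5, 54.7 and 69.8 CPM in the control, DsiRNA 13.6 and DsiRNA 13.8 groups, and it rose with both, by 0.40 ± 0.08 and 0.75 ± 0.08 on the log2 scale (edgeR adjusted p = 0.00093 and 3.2e-06). So with DsiRNA 13.6 S100A10 was higher while ANXA2 was lower, and with DsiRNA 13.8 both were higher. S100A11, which binds ANXA1, rose by 0.28 with DsiRNA 13.6 (edgeR adjusted p = 0.011) and differed by 0.04 with DsiRNA 13.8 (edgeR adjusted p = 0.71).

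S100A6, a partner of ANXA11, is listed at 0 reads in 8 libraries and at 4 reads in DsiRNA 13.8 replicate 2. PDCD6, which binds ANXA7 and ANXA11, fell with both DsiRNAs, by 0.35 and 0.51. Sorcin, encoded by SRI and a partner of ANXA7, differed by 0.01 and 0.12 and passed neither test. S100A1 rose by 0.85 and 1.70, and S100A16 by 0.44 and 0.33. Those that fell with DsiRNA 13.8 included PDCD6 and CALM2, a calmodulin gene, which fell by 1.83 and is named because the count was small.

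Outside the cell, the tail of ANXA1 acts on formyl peptide receptors. FPR1, FPR2 and FPR3 had 0 to 6 reads in each library and none was tested. Within the cell, ANXA1 is known to restrain cytosolic phospholipase A2. Its gene PLA2G4A rose by 0.60 with DsiRNA 13.8 (edgeR adjusted p = 3.0e-05) and differed by 0.12 with DsiRNA 13.6 (edgeR adjusted p = 0.24). Of 10 tested genes of phospholipase A2 and prostaglandin synthesis, 1 rose and 2 fell with DsiRNA 13.6 (median -0.04). With DsiRNA 13.8, 3 rose and 3 fell (median 0.05). The shares of all tested genes that rose and fell were 24.9% and 25.0% with DsiRNA 13.6, and 27.5% and 27.9% with DsiRNA 13.8. PLA2G16, now named PLAAT3, fell by 0.35 and 0.64. LTA4H, which makes leukotriene B4, rose by 0.20 with DsiRNA 13.6 and fell by 0.39 with DsiRNA 13.8. The cyclooxygenase genes PTGS1 and PTGS2 had 0 to 6 reads in each library.

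ANXA1 is a textbook glucocorticoid-induced gene, so the receptor and other such targets were listed. The receptor gene NR3C1 differed by -0.05 with DsiRNA 13.6 and fell by 0.32 with DsiRNA 13.8 (edgeR adjusted p = 0.0035). Of 8 tested genes of the list, 2 rose and 3 fell with each DsiRNA (medians -0.15 and -0.13). Beside them, 24.9% of all tested genes rose and 25.0% fell with DsiRNA 13.6, and 27.5% and 27.9% with DsiRNA 13.8. TSC22D3, which encodes the glucocorticoid-induced leucine zipper, fell by 1.65 with DsiRNA 13.6 and rose by 0.57 with DsiRNA 13.8. KLF9 rose by 0.70 and 0.49, and DUSP1 fell by 0.77 and 0.42. The genes called with DsiRNA 13.8 did not share a direction.

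Of 24 tested genes of membrane repair, 15 rose and 4 fell with DsiRNA 13.8 (median 0.36), where 27.5% of all tested genes rose and 27.9% fell. FER1L5 and OTOF, among the risers, passed the filter on low counts only through their DsiRNA 13.8 reads, so their rise is a description. With DsiRNA 13.6, 5 rose and 7 fell (median -0.14), where 24.9% rose and 25.0% fell. AHNAK, the large scaffold that binds ANXA2 with S100A10, had 42.4, 22.3 and 25.3 CPM in the controls, 45.9, 32.4 and 33.0 with DsiRNA 13.6, and 114, 115 and 111 with DsiRNA 13.8. It rose by 1.92 with DsiRNA 13.8 (edgeR adjusted p = 1.1e-05), and the difference of 0.30 with DsiRNA 13.6 did not pass (edgeR adjusted p = 0.25). MYOF, a ferlin of membrane patches, fell by 1.82 with DsiRNA 13.6 and rose by 1.02 with DsiRNA 13.8. EHD2, which coats caveolar necks, likewise fell by 0.90 and rose by 0.66.

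DYSF, the ferlin mutated in a muscular dystrophy, had 3 to 32 reads per library; it rose by 1.12 with DsiRNA 13.8 (edgeR adjusted p = 0.049). CAV2 rose with both, by 0.52 and 0.89. VPS4B, an ATPase that takes apart ESCRT filaments, rose by 0.38 with DsiRNA 13.6 and fell by 1.39 with DsiRNA 13.8. The other 3 that fell with DsiRNA 13.8 were CAPN2 by 0.73, FER1L6 by 0.59 and VPS4A by 0.35, named because their count was small.

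ANXA2 is known as a surface receptor for plasminogen and its activator, so the genes of this system were listed. PLAT, which encodes the tissue plasminogen activator that binds ANXA2 at the surface, had 213, 263 and 263 CPM in the controls, 300, 309 and 316 with DsiRNA 13.6, and 484, 495 and 491 with DsiRNA 13.8. The groups did not overlap. It rose by 0.32 ± 0.08 and 0.99 ± 0.08 (edgeR adjusted p = 0.0033 and 2.0e-07). PLAUR, the urokinase receptor gene, rose by 0.47 and 0.57. Of 8 tested members, 2 rose and 1, SERPINF2, fell with DsiRNA 13.6 (median -0.01), beside 24.9% and 25.0% of all tested genes. With DsiRNA 13.8, 5 rose and 0 fell by edgeR (median 0.54), beside 27.5% and 27.9% of all tested genes. At an unadjusted p under 0.05, edgeR gave 1 lower gene, ENO1 at -0.19, and DESeq2's Wald test called 1. The 5 also included SERPINE2, a protease inhibitor gene, which rose by 0.96, and PLGRKT, a plasminogen receptor gene, which rose by 0.50, so an activator and an inhibitor were both among them. PLG itself had 0 to 10 reads per library.

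Phosphatidylserine, the lipid to which annexins bind, is moved between membrane leaflets by flippases and scramblases. Of 13 tested genes for its synthesis and movement, 6 rose and 4 fell with each DsiRNA (medians 0.31 and 0.22). Over all tested genes, 24.9% rose and 25.0% fell with DsiRNA 13.6, and 27.5% and 27.9% with DsiRNA 13.8. TMEM30A, the shared flippase subunit, had mean levels of 35.6, 64.3 and 134 CPM in the 3 groups and rose by 0.85 and 1.91 (edgeR adjusted p = 1.6e-07 and 2.5e-10). PLSCR4 rose by 0.52 and 2.32, and PLSCR1, of the same phospholipid scramblase family, fell by 0.70 and 0.66.

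Of 15 tested genes of exocytosis and endosome fusion, where several annexins bridge membranes, 2 rose and 5 fell with DsiRNA 13.8 (median -0.06). With DsiRNA 13.6, 5 rose and 4 fell (median -0.05). Over all tested genes, 27.5% rose and 27.9% fell with DsiRNA 13.8, and 24.9% and 25.0% with DsiRNA 13.6. STX12, a syntaxin of recycling endosomes, rose by 0.51 with DsiRNA 13.6 and fell by 0.74 with DsiRNA 13.8. STX3 fell by 0.45 and 0.32, and HGS, an ESCRT subunit, by 0.47 and 0.31. The risers with DsiRNA 13.8 were VAMP8 by 1.52 and LAMTOR1 by 0.34, named because their count was small.

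**Figure D4:**
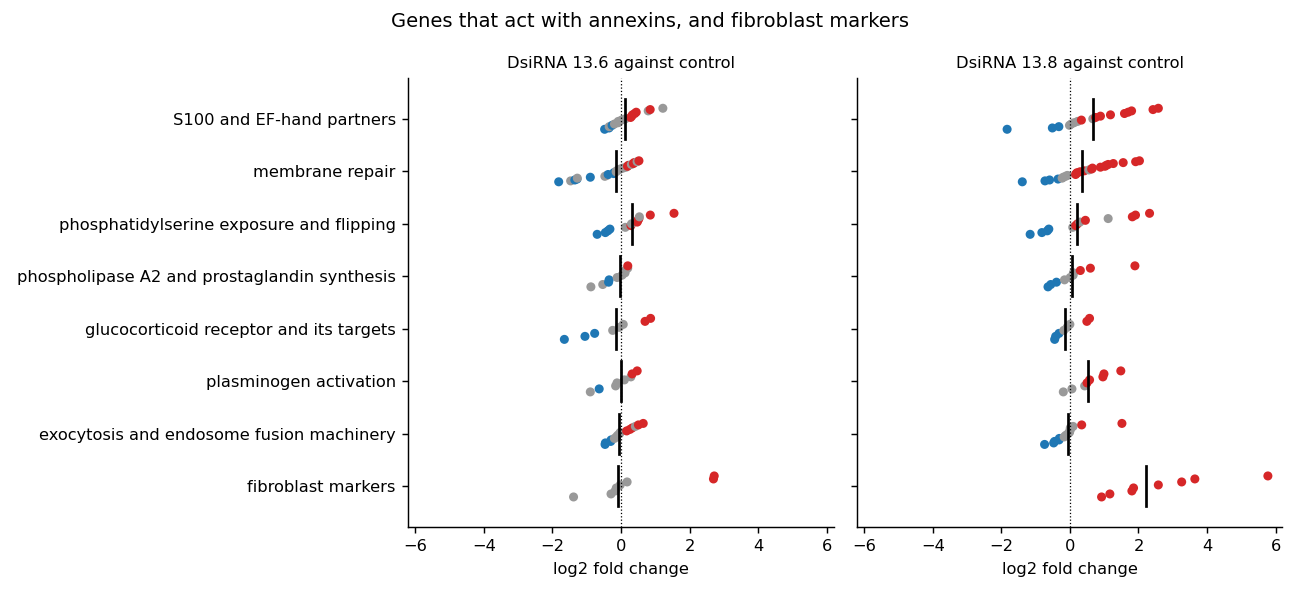
Log2 fold change (horizontal axes) of each tested gene of 7 lists that act with annexins, and of fibroblast markers, for DsiRNA 13.6 and DsiRNA 13.8 against control; points are genes, red for a called rise, blue for a called fall and grey for a difference that did not pass, and the black line is the median of the list. The dotted line is the median of all tested genes, -0.01 and 0.01; the medians with DsiRNA 13.8 reach 0.67 for S100 and EF-hand partners and 2.22 for fibroblast markers. S100A3, S100P, FER1L5, OTOF and DCN, called risers with DsiRNA 13.8, passed the filter on low counts only through that group.

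Markers of other cells were read beside these results, because ANXA1 and ANXA2 are also expressed outside the melanocyte lineage. The 7 melanocyte markers, PMEL and TYRP1 among them, summed to 13333 to 15343 CPM in the controls, 13811 to 14965 with DsiRNA 13.6 and 17292 to 18105 with DsiRNA 13.8. TYRP1 had group means of 3604, 2695 and 7831 CPM. Its rise from control to DsiRNA 13.8 was larger than that of the mean sum, since several other markers were lower. The mean of PMEL was 8067 CPM in the controls and 7044 CPM with DsiRNA 13.8. The lineage did not move as 1 with DsiRNA 13.8: TYR, TYRP1 and DCT rose, while MITF fell by 0.97, SOX10 by 0.35 and MLANA by 0.27 (median of the 7, -0.20). Summed CPM of 10 fibroblast markers was 5.75 to 7.07 in the controls, 7.43 to 9.18 with DsiRNA 13.6 and 28.3 to 29.3 with DsiRNA 13.8. No fibroblast marker was without reads in a whole group. Of 8 tested, 2 (THY1 and POSTN) rose with DsiRNA 13.6 (median -0.08), where 24.9% of all tested genes rose. With DsiRNA 13.8, 8 rose (median 2.22), where 27.5% of all tested genes rose. DCN, among these 8, passed the filter on low counts only through its DsiRNA 13.8 reads, so its rise is a description.

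The defining collagen genes were at low counts, with 43 to 82 COL1A1 reads and 0 to 1 COL3A1 reads per control library, and 134 to 145 and 7 to 21 with DsiRNA 13.8. These markers moved with ANXA1, and their part in the result was not tested. KRT5 had 0 reads in every library, and KRT10 held nearly all of the 39.4 to 46.4 CPM of the 7 keratinocyte markers, the others having 0 to 8 reads per library. The 7 leukocyte markers summed to 73.6 to 79.3 CPM in the controls, 100.2 to 106 with DsiRNA 13.6 and 77.4 to 83.3 with DsiRNA 13.8, with CD68 the bulk of it. The 5 endothelial markers stayed between 0.53 and 1.60 CPM.

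Among genes averaging 5 CPM or more, those whose levels ran most like ANXA1 over the 9 libraries, by Pearson's r of log2 CPM, were PDK4 (0.996), FOXC1 (0.995), MVP (0.994), TCF25 (0.993), DNAJB4 (0.993) and DDR2 (0.992). The 9 points share libraries in 3 groups, so the values describe that these genes also stood apart with DsiRNA 13.8. Their sizes differed. DDR2, a collagen receptor gene, went from a mean of 1.30 CPM in the controls to 12.8 CPM with DsiRNA 13.8. It passed the limit of 5 CPM, a mean over all 9 libraries, only through the DsiRNA 13.8 group. TCF25 went from 61.9 to 91.2 CPM. PDK4, which restrains pyruvate dehydrogenase, was at 844 CPM in the controls and 1671 with DsiRNA 13.8.

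Neighbouring genes of ANXA1 in RefSeq's order (GRCh38.p14) did not all move with it. ALDH1A1, the gene on the side of TMC1, had 125, 114 and 165 reads in the controls, 109, 124 and 134 with DsiRNA 13.6, and 331, 437 and 385 with DsiRNA 13.8. It rose by 1.25 ± 0.15 on the log2 scale with DsiRNA 13.8 (edgeR adjusted p = 1.3e-05), while -0.23 ± 0.16 with DsiRNA 13.6 did not pass (edgeR adjusted p = 0.26). RORB, on the other side, fell by 0.38 with DsiRNA 13.6 and by 0.55 with DsiRNA 13.8 (edgeR adjusted p = 0.036 and 0.0048). TMC1 and TRPM6, each 1 gene further out, differed by -0.09 and -0.12 with DsiRNA 13.8 and passed no test there.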

How the data were processed

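Total RNA of 501mel cells was sequenced from 9 libraries made with a kit that keeps strand. The submitters' processing notes name hg19 as the build and STAR, HTSeq, cutadapt, FastQC and DESeq2 as tools; for versions, annotation and the strand setting, these sources give nothing. The deposited raw counts are whole numbers of reads for each symbol. A second table deposited by the authors holds log2 values of counts divided by size factors, plus 1; it gave back the counts and was used only for that check. Of 25398 entries, 16 repeated ones were left out.

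Counts were tested in R 4.3.3 with edgeR 4.0.16 (filterByExpr with at least 10 reads, TMM, quasi-likelihood fit to 9 libraries with 1 mean per group, 6 residual degrees of freedom), two-sided, adjusted by Benjamini-Hochberg over 14731 genes. On simulated counts of 14555 genes with 200 changed, set up as DsiRNA 13.8 against control, it recovered 80.6% of 1.5-fold, 95.5% of 2-fold and 100% of 4-fold changes, and 8% of calls were false. Far fewer genes changed there than were called in the data (8169 with DsiRNA 13.8), so these shares may not hold for the data. Changes smaller than 1.5-fold were not simulated. The lowest and highest library totals, given with the results, set the counting error, and replicate libraries differed by more than that error. Alternatives used DESeq2 1.42.0, limma 3.58.1, other scalings and filters, a replicate block and each library left out. A fit with ANXA2P2 reads added was chosen after seeing the data.

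The members, lists and alternatives were chosen with earlier results of these data known. Named from each list were up to 4 genes called against control with both DsiRNAs, ranked by the smaller of both changes, plus defining partners; genes named because a count was small were chosen after their values were seen. Gene lengths came from GENCODE 29 and promoters from RefSeq, matched by symbol; counts and coordinates rest on different builds and were not combined by position. The protein comparison was not run, and some genes of the lists are counted but not reported here by name.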

Additional observations from a re-analysis of the deposited data

Results flagged for a closer look

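For 4 annexins the effect of one DsiRNA differed from that of the other by a test of the difference itself, in edgeR's fit with adjustment over all genes. ANXA2 stood 0.87 higher on the log2 scale with DsiRNA 13.8 than with DsiRNA 13.6, ANXA6 0.80 higher, ANXA7 at -0.62 and ANXA11 at -0.52. In each, all 3 libraries of one DsiRNA lay beyond all 3 of the other. Between these groups 61.1% of all tested genes were called and 68.8% did not overlap, so such differences were common.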

How the results depend on the processing

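Every difference called for ANXA2, ANXA4, ANXA6, ANXA7 and ANXA11 in the 3 comparisons kept its direction and its side of the threshold in all alternatives run. The count of annexins called with DsiRNA 13.8 was 4, or 5 where ANXA4 or ANXA5 passed. The adjusted p of ANXA4 was 0.045 with DESeq2 size factors, 0.039 with DESeq2's Wald test, 0.046 with limma-voom and 0.040 with the replicate block. ANXA4 also passed without control replicate 2 (0.0499) and without DsiRNA 13.6 replicate 1 (0.046). ANXA5 passed with DsiRNA 13.8 without control replicate 3 (0.032), and ANXA6 with DsiRNA 13.6 without control replicate 1 (0.042).

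Small differences with DsiRNA 13.6 changed sign. With 1 library left out at a time, ANXA1 ran from -0.367 to 0.155, ANXA5 from -0.0253 to 0.112, ANXA6 from -0.244 to 0.0255 and ANXA7 from -0.0209 to 0.0698. The sign turned without control replicate 1 for ANXA1, ANXA5 and ANXA7, without DsiRNA 13.6 replicate 3 for ANXA5 and without control replicate 2 for ANXA6. ANXA7 was also at -0.0061 with library totals in place of TMM; the cause was not tested. The plasminogen genes called lower with DsiRNA 13.8 numbered 1 in place of 0 by DESeq2's Wald test and with the replicate block. With any 1 library left out, 3 to 4 annexins were called with DsiRNA 13.6, 4 to 5 with DsiRNA 13.8 and 4 to 4 between them.

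Whether the replicate numbers pair the libraries was not settled. Same-numbered libraries had correlations of their deviations between -0.18 and 0.19, and other-numbered libraries between -0.25 and 0.19. A replicate block called 8010 genes with DsiRNA 13.6 and 8803 with DsiRNA 13.8, and 3 and 5 of the annexins. Without the block, 7357 and 8169 genes were called. Depth limits ANXA3, ANXA9 and the receptor genes, whose reads were few.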
